A study of Mus musculus with 18 samples.

Results

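The insulin-like growth factor (IGF) family was examined as 10 genes of the deposited table: the ligands Igf1 and Igf2, the receptors Igf1r and Igf2r, and the binding proteins Igfbp2, Igfbp3, Igfbp4, Igfbp5, Igfbp6 and Igfbp7. They were selected by gene symbol from the 19862 genes of the table, and all 10 were among the 17515 genes that were above 0 in at least 3 libraries and were therefore tested. Igf1 and Igf2 are secreted growth factors. Igf1r is the receptor tyrosine kinase that passes their signal into the cell through insulin receptor substrates, PI3 kinase and AKT, whereas Igf2r has no kinase, takes Igf2 up for degradation and also sorts lysosomal enzymes that carry mannose 6-phosphate. The binding proteins are secreted carriers that hold IGFs outside the cell and can block or prolong their action. In bone these factors are made by osteoblasts, and IGF signalling is a known growth pathway of osteosarcoma.

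The cells were mouse osteosarcoma cells of mixed strain background, labelled with an age of post natal day 299, from tumours of mice with conditional loss of p53 and Rb. All cells carried floxed Prmt1 alleles (Prmt1 f/f) and a stably expressed CreER, the Cre recombinase that 4-hydroxytamoxifen (4OHT) switches on. Prmt1 encodes an arginine methyltransferase. Control cells received ethanol and are labelled wild type, and knockout cells received 4OHT and are labelled Prmt1-/-. So the effect of 4OHT or active Cre cannot be told apart from that of the deletion, as no 4OHT-treated cells without floxed alleles are among the libraries. Cytoplasmic RNA was taken whole (Total) or after a sucrose gradient that sorts messages by ribosome load, from messages with fewer than 3 ribosomes (Light) and with more than 3 (Heavy). Each of the 6 groups had n = 3 libraries, and the labels do not say that these came from separate cultures, so p-values measure the spread between these libraries, which may be technical. The deposited unit is log2(CPM + 1), where CPM are counts scaled to 1000000 per library. Levels below are CPM, always in the order of libraries 1, 2 and 3, and changes are on the log2(CPM + 1) scale, which understates the change of low genes.

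Depth ran from 32.3 to 57.9 M reads per library (M for 1000000). Prmt1 fell from 256, 277 and 285 CPM to 147, 176 and 173 CPM in Total RNA and from 412, 378 and 370.1 CPM to 64.4, 121 and 145 CPM in Heavy RNA. In Light RNA the groups overlapped, at 255, 243 and 218 CPM against 166, 229 and 235 CPM. Of the osteoblast markers, Runx2 (37.8 to 84.8 CPM), Col1a1 (699 to 4661 CPM) and Sparc (679 to 4073 CPM) were present in all libraries, whereas the late markers Ibsp (at most 0.0192 CPM), Bglap (at most 0.276 CPM) and Dmp1 (at most 0.360 CPM) were near 0. Osteoblast markers went both ways, with 4 of 11 tested called higher and 3 lower in Total RNA, 5 and 3 in Light, and 4 and 2 in Heavy. Of all genes tested, 16.1% were called higher and 10.3% lower in Total RNA. These shares were 26.8% and 12.7% in Light and 18.5% and 10.4% in Heavy RNA, and the marker counts are to be read beside them. The summed osteoblast level rose without overlap in Light RNA, from 2339 to 2813 CPM in control to 4565 to 7499 CPM in knockout libraries. It also rose without overlap in Heavy RNA, from 4128 to 5584 CPM to 6438 to 13184 CPM. In Total RNA the sums overlapped, at 4338 to 6133 CPM in control and 6032 to 7862 CPM in knockout libraries. Some markers of other cells were higher in the knockout: in Total RNA, 4 of 6 macrophage markers, 2 of 6 endothelial markers and 3 of 6 epithelial markers were called higher and none lower. Their summed levels went from 6.62 to 8.73 CPM in control to 16.4 to 20.0 CPM in knockout libraries (macrophage), from 0.403 to 0.794 to 3.33 to 3.605 CPM (endothelial) and from 0.718 to 1.37 to 7.14 to 10.2 CPM (epithelial). In Total RNA the summed adipocyte markers were lower in the knockout (28.9 to 36.1 CPM, against 41.05 to 44.03 CPM), with 0 of 5 tested called (1 called lower in Light), and the summed chondrocyte markers were higher (34.3 to 61.3 CPM, against 25.6 to 33.1 CPM), with 1 of 4 called higher. The muscle sums overlapped, at 7.27 to 8.94 CPM in control and 5.89 to 10.7 CPM in knockout libraries, with 1 of 3 called higher. Members of these lists differed in level. Ptprc and Itgam stayed at or below 0.0721 and 0.124 CPM, Pecam1 and Cdh5 at or below 0.367 and 0.205 CPM, and Epcam and Cdh1 at or below 0.144 and 0.177 CPM. In their highest library the macrophage markers Csf1r, Cd14 and Cd68 reached 14.0, 5.74 and 3.82 CPM. The endothelial marker Flt1 reached 3.17 CPM, and the epithelial markers Krt14 and Krt8 reached 9.08 and 3.19 CPM. The part of these other cells in the changes below was not tested, and in bulk RNA fewer cells with a message and less message per cell cannot be told apart. Within each fraction, library 1 was the knockout library with the greatest distance from its group mean, with root mean square deviations of 0.339 in Heavy, 0.241 in Light and 0.209 in Total on the log2 scale.

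The 4 genes with the largest changes among well-covered members lie on 4 chromosomes, and the RefSeq sequence of the 250 bases before each start site (GRCm38.p6, the assembly also called mm10) is shown to let their promoters be compared. Capitals mark matches, on either strand, to the TATA box (TATAAA), the CCAAT box (CCAAT), the GC box (GGGCGG) and the E-box (CACGTG). The windows are chr5:77408046-77408295 on the minus strand (Igfbp7), chr11:99040994-99041243 on the plus strand (Igfbp4), chr15:102143936-102144185 on the plus strand (Igfbp6) and chr17:12769707-12769956 on the minus strand (Igf2r).
Igfbp7: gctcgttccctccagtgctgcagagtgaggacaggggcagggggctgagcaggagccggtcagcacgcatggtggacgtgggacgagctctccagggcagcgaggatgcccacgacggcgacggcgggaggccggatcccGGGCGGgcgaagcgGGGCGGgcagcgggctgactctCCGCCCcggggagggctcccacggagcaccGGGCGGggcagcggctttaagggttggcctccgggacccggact
Igfbp4: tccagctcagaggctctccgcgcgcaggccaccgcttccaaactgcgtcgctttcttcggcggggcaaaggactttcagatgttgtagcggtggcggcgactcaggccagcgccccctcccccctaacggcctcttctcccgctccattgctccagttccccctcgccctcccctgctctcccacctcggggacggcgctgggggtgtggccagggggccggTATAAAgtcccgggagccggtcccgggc
Igfbp6: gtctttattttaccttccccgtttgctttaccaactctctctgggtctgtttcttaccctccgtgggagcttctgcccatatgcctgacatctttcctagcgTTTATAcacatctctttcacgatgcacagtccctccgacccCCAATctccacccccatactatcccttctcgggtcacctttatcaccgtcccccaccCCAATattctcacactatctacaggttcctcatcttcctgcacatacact
Igf2r: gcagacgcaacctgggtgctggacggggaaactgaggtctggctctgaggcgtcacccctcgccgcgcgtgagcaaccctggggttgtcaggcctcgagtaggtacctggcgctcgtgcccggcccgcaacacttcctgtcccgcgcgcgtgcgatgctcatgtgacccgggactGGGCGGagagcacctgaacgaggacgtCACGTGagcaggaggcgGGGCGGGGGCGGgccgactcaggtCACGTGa

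The promoters of Igfbp7, the member that fell, and of Igf2r, which rose, were alike in being rich in CpG and GC boxes: Igfbp7 had 26 CpG and 4 GC boxes, and Igf2r had 27 CpG and 3 GC boxes, with a median of 6 CpG over 32817 mouse promoter windows. Igf2r also had 2 E-boxes, which start 48 and 7 bases before the start site. The promoter of Igfbp4 had 22 CpG and a TATA box 28 bases before the start site. That of Igfbp6 had 7 CpG, 2 CCAAT boxes and a TATA match on the opposite strand. Among all windows, 12.4% held the TATA box, 33.8% the CCAAT box, 32.7% the GC box and 6.02% the E-box. The letters of an AP-1 site (TGANTCA) were in 6.75% of all windows and in a promoter of 2 members (Igfbp2 and Igf1). An ATF4 element (TGATGNAA, 3.45% of windows) and an interferon element (GAAANNGAA, 7.12%) were in a promoter of 0 members. These matches are a description of the letters only.

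In knockout cells the family moved in opposite directions: Igfbp7 was lower in all 3 kinds of RNA, while Igfbp4, Igfbp5, Igfbp6, Igf2, Igf1r and Igf2r were higher. In Total RNA 6 of 10 members were called higher and 1 lower at an adjusted p under 0.05, against 16.1% and 10.3% of all genes tested. In Light RNA 7 were called higher and 1 lower, against 26.8% and 12.7%. In Heavy RNA 6 were called higher and 1 lower, against 18.5% and 10.4%. The median change of the 10 members was 0.64 in Total, 1.07 in Light and 0.68 in Heavy RNA, beside 0.01, 0.05 and 0.02 over all genes tested. Earlier results of these data were known when the members were chosen, and the fall of Igfbp7 in Total RNA was one of them. So the counts, in which Igfbp7 is the 1 member called lower, are a description. Its knockout changes within each fraction are given without a p-value, while its gradient comparisons below carry one. The 3 libraries of the groups did not overlap for 6 members that were higher and 1 that was lower in Total RNA (24.4% and 20.2% of all genes), for 8 and 1 in Light (33.3% and 17.3%) and for 7 and 1 in Heavy (24.1% and 13.8%).

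Part of the excess of higher calls over all genes depends on scaling. In the deposited values 60.9% of calls in Total, 67.9% in Light and 64.1% in Heavy RNA were higher, which became 48.9%, 47.3% and 49.1% after quantile normalization and 53.7%, 46.2% and 44.6% after median-of-ratios scaling. The median gene of at least 1 CPM was shifted by 0.14 in Light RNA, and Light changes are to be read relative to that. Under both scalings the members kept the direction of their change in every fraction where they were called.

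**Figure D1:**
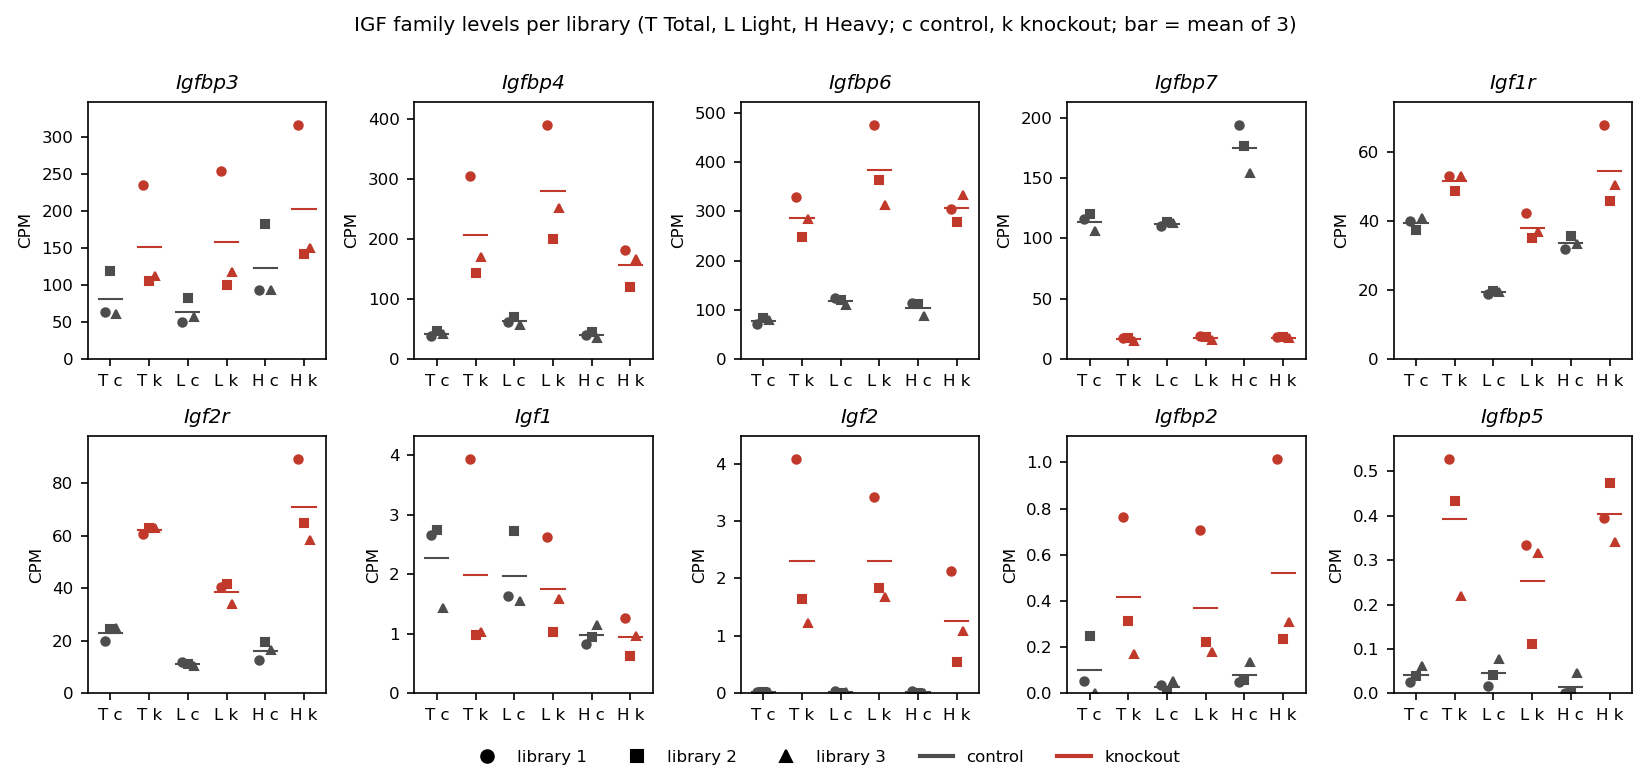
Level in CPM (vertical axes, each from 0) of the 10 IGF family genes in each of the 18 libraries, by fraction and genotype. Symbols mark library numbers and bars the mean of 3; Igfbp7 in knockout libraries lies between 14.9 and 19.4 CPM, below all control libraries (106 to 194 CPM), and knockout library 1 is the highest symbol in many other panels.

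Igfbp7 (chromosome 5, 77349240 to 77408041, minus strand, GENCODE M21 on GRCm38) encodes a matrix-bound member of the family with low affinity for IGFs. In control Total libraries it stood at 116, 120 and 106 CPM, and in knockout libraries at 17.2, 17.6 and 14.9 CPM, a log2 change of -2.71 (SE 0.10). Its Light levels stood at 110, 114 and 113 CPM against 19.4, 18.04 and 15.9 CPM, a change of -2.60 (SE 0.10). Its Heavy levels stood at 194, 177 and 154 CPM against 18.003, 18.5 and 17.3 CPM, a change of -3.21 (SE 0.10). All knockout libraries were far below all control libraries, and the knockout level was nearly the same in the 3 fractions whereas the control level was highest in Heavy. Igfbp7 overlaps Polr2b, a polymerase subunit gene on the other strand, over 85 bases. Polr2b was at 26.3 to 86.5 CPM, and the sources used here do not state whether counting used strand.

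Igfbp4 (chromosome 11, 99041244 to 99054392, plus strand) encodes a binding protein known mainly as an inhibitor of IGF action, which the protease PAPP-A cleaves. Its Total level rose from 37.8, 46.3 and 41.8 CPM to 305, 143 and 171 CPM, by 2.20 (SE 0.26, limma adjusted p = 1.07e-05). Its Light level rose from 61.3, 69.8 and 57.3 CPM to 389, 200.2 and 251 CPM, by 2.09 (SE 0.26, adjusted p = 1.12e-05). Its Heavy level rose from 40.7, 44.9 and 34.9 CPM to 182, 119 and 167 CPM, by 1.92 (SE 0.26, adjusted p = 3.63e-05). The groups did not overlap in any fraction, and knockout library 1 was the highest in each. Without the knockout libraries numbered 1 the changes were 1.88, 1.82 and 1.80, all still called.

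Igfbp6 (chromosome 15, 102144362 to 102149511, plus strand) encodes the binding protein that prefers Igf2 to Igf1. In Total RNA it rose from 70.5, 84.2 and 79.4 CPM to 329, 247 and 284 CPM, by 1.86 (SE 0.15, adjusted p = 2.54e-07). In Light RNA it rose from 123, 121 and 111 CPM to 475, 364 and 313 CPM, by 1.67 (SE 0.15, adjusted p = 5.18e-07). In Heavy RNA it rose from 114, 112 and 87.5 CPM to 305, 279 and 333 CPM, by 1.55 (SE 0.15, adjusted p = 1.60e-06). Every knockout library was above every control library. Here library 1 was the highest knockout library in Total and Light but not in Heavy RNA.

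Igfbp3 (chromosome 11, 7206086 to 7213923, minus strand) encodes the main IGF carrier of serum. In Total RNA it was at 63.4, 119 and 61.7 CPM in control and 236, 106 and 113 CPM in knockout libraries, a difference of 0.86 (SE 0.42, adjusted p = 0.150) with overlapping groups. In Heavy RNA it was at 93.5, 182 and 93.0 CPM against 316, 142 and 150.4 CPM, a difference of 0.69 (SE 0.42, adjusted p = 0.247), again overlapping. In Light RNA it rose from 50.2, 82.8 and 56.9 CPM to 254, 101 and 118 CPM, by 1.21 (SE 0.42, adjusted p = 0.0303). Control library 2 and knockout library 1 were the high ones in each fraction. The Light call was lost without Light knockout library 1 (0.81, adjusted p = 0.167), without Light control library 1 or 3 (adjusted p = 0.0983 and 0.0794), without all knockout libraries numbered 1 (adjusted p = 0.0539) and with median-of-ratios scaling (0.99, adjusted p = 0.0608).

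Igfbp2 and Igfbp5 are neighbours on chromosome 1 and were near the limit of detection. Igfbp5, a binding protein abundant in bone matrix, had 5, 6 and 2 reads summed over the control libraries of Total, Light and Heavy and 45, 37 and 45 reads over the knockout libraries. It was called higher in Total (0.41, SE 0.07, adjusted p = 5.49e-04), Light (0.26, SE 0.07, adjusted p = 0.0110) and Heavy RNA (0.47, SE 0.07, adjusted p = 1.71e-04). No library of either group was above 0.528 CPM, and knockout and control libraries did not overlap in any fraction. Its ratio of knockout to control read shares was 9.45 in Total (exact interval at 95%, 3.77 to 30.5), 6.53 in Light (2.73 to 18.9) and 24.4 in Heavy RNA (6.36 to 207), counting error only, so the small log2(CPM + 1) changes come with a large ratio. The Light call of Igfbp5 was lost after quantile normalization (adjusted p = 0.0531) and without Light knockout library 1 (adjusted p = 0.0588). Igfbp2 had 15, 4 and 10 control reads and 46, 53 and 60 knockout reads, with differences of 0.35, 0.39 and 0.46 that were not called (adjusted p = 0.165, 0.0883 and 0.0618). The ratio of knockout to control read shares, with its exact interval at 95% for counting error only, was 3.22 (1.77 to 6.21), 14.04 (5.17 to 53.4) and 6.50 (3.30 to 14.2) for Igfbp2. Its Light and Heavy groups did not overlap, while its Total groups did. Igfbp2 passed the threshold in 4 of 15 alternatives in Light and in 6 of 15 in Heavy RNA, voom on the recovered reads among them (adjusted p = 0.00673 and 0.0426).

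**Figure D2:**
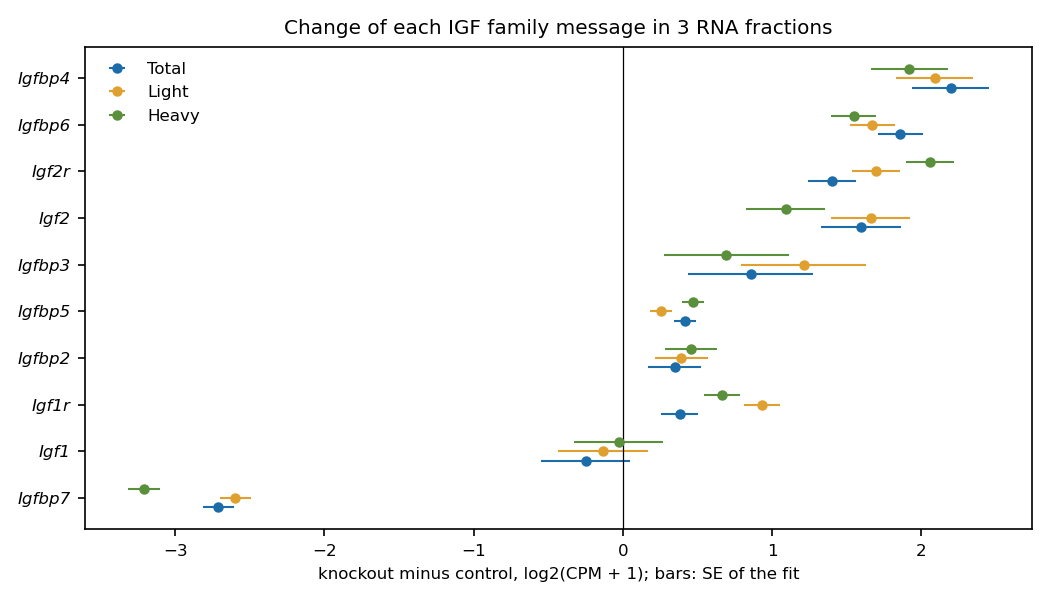
Knockout minus control on the log2(CPM + 1) scale (horizontal axis) for each member in Total, Light and Heavy RNA, with bars for the SE of the fit. Igfbp7 lies at -2.60 to -3.21 and Igfbp4 at 1.92 to 2.20, and the bars of Igf1 reach across 0.

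The make-up of the binding protein messages followed from these changes. Igfbp7 made up 36.5 ± 3.90% of the reads of the 6 binding protein genes in Total control libraries (mean ± SD, n = 3) and 2.64 ± 0.740% in knockout libraries. The share of Igfbp6 went from 24.9 ± 2.40% to 44.6 ± 6.56% and that of Igfbp4 from 13.4 ± 1.02% to 30.5 ± 3.45%, while Igfbp3 held 25.2 ± 6.07% and 22.2 ± 3.83%. The summed level of the 6 genes was 316 ± 47.5 CPM in control and 662 ± 199 CPM in knockout Total RNA. So the drop of Igfbp7 was accompanied by more, not less, binding protein message in all. In Heavy RNA, the messages with most ribosomes, Igfbp7 went from 39.9 ± 5.06% to 2.70 ± 0.572% of these reads and in Light RNA from 31.6 ± 2.05% to 2.21 ± 0.473%. These shares restate the levels above and were not tested.

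**Figure D3:**
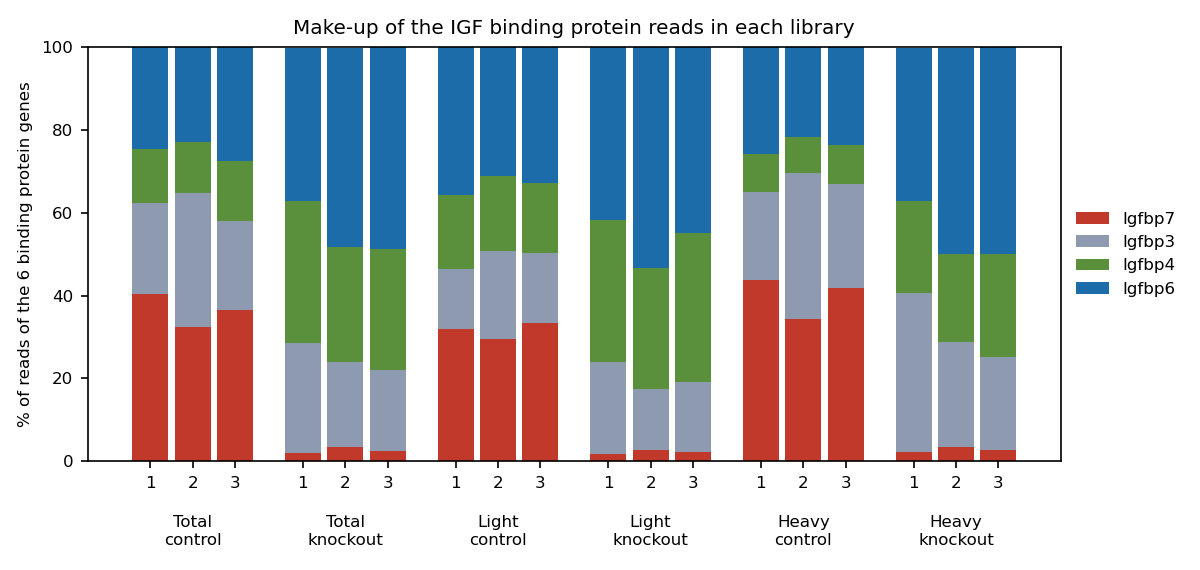
Share of the reads of the 6 binding protein genes (vertical axis, percent, stacked) held by Igfbp3, Igfbp4, Igfbp6 and Igfbp7 in each library. Igfbp2 and Igfbp5, whose shares were very small, are not drawn. On average Igfbp7 fills 36.5% of the Total control bars and 2.64% of the Total knockout bars, and Igfbp6 and Igfbp4 fill most of the knockout bars.

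The ligands were low in these cells. Igf2 (chromosome 7, 142650766 to 142666816, minus strand), the imprinted fetal growth factor, had 1, 1 and 1 reads in the Total control libraries and 139, 68 and 50 reads in the knockout libraries. In Light RNA it had 2, 0 and 1 reads against 173, 66 and 85. In Heavy RNA it had 2, 0 and 0 reads against 86, 21 and 35. The message was thus nearly absent from control cells and present at 0.554 to 4.07 CPM in every knockout library, most in library 1. The ratio of knockout to control read shares was 90.0 in Total (exact interval at 95%, 30.5 to 439), 114 in Light (38.8 to 558) and 76.9 in Heavy RNA (20.9 to 641), and these intervals cover counting error only. On the log2(CPM + 1) scale Igf2 rose by 1.59 (SE 0.27, adjusted p = 2.94e-04), 1.66 (SE 0.27, adjusted p = 1.30e-04) and 1.09 (SE 0.27, adjusted p = 0.00538). Igf2os, an antisense gene over the locus, was at most at 0.176 CPM.

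Igf1 (chromosome 10, 87858265 to 87937042, plus strand), the ligand that growth hormone drives in the adult, did not follow Igf2. In Total RNA it was at 2.66, 2.74 and 1.43 CPM in control and 3.93, 0.985 and 1.03 CPM in knockout libraries, a difference of -0.25 (SE 0.30, adjusted p = 0.598). In Light RNA the difference was -0.13 (SE 0.30, adjusted p = 0.766) and in Heavy RNA -0.03 (SE 0.30, adjusted p = 0.991). The groups overlapped in each fraction, and library 1 was the highest knockout library in each. Without all 3 knockout libraries numbered 1, Igf1 fell by 0.68 in Total RNA (adjusted p = 0.0211), the 1 call among 16 alternatives. Leaving out Total knockout library 1 alone gave the same difference of -0.68 without a call.

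Both receptors rose. Igf1r (chromosome 7, 67952827 to 68233668, plus strand) was at 40.1, 37.6 and 40.9 CPM in Total control and 53.3, 48.8 and 53.0 CPM in Total knockout libraries (0.38, SE 0.12, adjusted p = 0.0300). Among Light libraries it rose from 19.1, 19.7 and 19.6 CPM to 42.4, 35.1 and 36.8 CPM, by 0.93 (SE 0.12, adjusted p = 2.01e-05). In Heavy RNA it rose from 31.9, 35.9 and 33.5 CPM to 68.0, 45.9 and 50.4 CPM, by 0.66 (SE 0.12, adjusted p = 6.24e-04). The groups did not overlap in any fraction. The Total call was lost without any 1 of Total control libraries 1, 2 and 3 and knockout libraries 1 and 3 (adjusted p between 0.0542 and 0.101) and with median-of-ratios scaling (0.33, adjusted p = 0.0551).

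Igf2r (chromosome 17, 12682406 to 12769664, minus strand) rose more. The Total level went from 20.0, 24.4 and 24.8 CPM to 60.6, 63.0 and 63.1 CPM, by 1.40 (SE 0.16, adjusted p = 8.73e-06). The Light level went from 11.9, 11.3 and 10.5 CPM to 40.6, 41.5 and 33.9 CPM, by 1.69 (SE 0.16, adjusted p = 8.34e-07). The Heavy level went from 12.6, 19.6 and 16.7 CPM to 89.2, 65.0 and 58.6 CPM, by 2.06 (SE 0.16, adjusted p = 1.67e-07). Every knockout library was above every control library in all 3 fractions. Per kilobase of the longest coding transcript, the level of Igf2r was 0.751 ± 0.0992 of that of Igf1r in Total control and 1.55 ± 0.0994 in Total knockout libraries, so the order of the receptors turned round. The same ratio went from 0.742 ± 0.0566 to 1.31 ± 0.182 in Light and, in Heavy RNA, from 0.505, 0.701 and 0.640 in the control libraries to a mean of 1.67 ± 0.165. Airn, the antisense RNA that overlaps Igf2r over 28354 bases, was at 0.0251 to 1.52 CPM, far under Igf2r itself.

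Ordered by CPM per kilobase of the longest coding transcript, Total control cells held most Igfbp7 (95.0), then Igfbp6 (70.2), Igfbp3 (33.6), Igfbp4 (10.96), Igf1r (3.46), Igf2r (2.60) and Igf1 (0.323). Neighbours in this order did not overlap between libraries, while Igfbp2, Igfbp5 and Igf2 at the low end did. In Total knockout cells Igfbp6 led (258), followed by Igfbp3 (62.6) and Igfbp4 (53.8), whose libraries overlapped, and Igfbp7 had dropped to the fourth place (13.8), above Igf2r (7.004) and Igf1r (4.53). Igf2 (0.489), Igfbp2 (0.318) and Igf1 (0.281) overlapped their neighbours. The places of Igfbp4 and Igf1 depend on the transcript. With the median coding transcript (742 bases in place of 3831) the level of Igfbp4 was 56.6 in control and 278 in knockout cells, the latter above Igfbp6 (258). By the same measure (1367 bases in place of 7052 for Igf1), mean Igf1 was 1.45 in Total knockout cells, above Igf2 (0.923) and Igfbp2 (0.361).

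Within the gradient of control cells, 3 of 10 members were called higher in Heavy than in Light RNA, 1 was called lower and 6 were not called. The differences Heavy minus Light of same-numbered libraries are given, since such libraries deviated together. Igf1r was higher in Heavy by 0.72, 0.84 and 0.74 (mean 0.76, SE 0.12, adjusted p = 4.74e-05), Igfbp7 by 0.81, 0.63 and 0.45 (mean 0.63, SE 0.10, adjusted p = 6.72e-05) and Igf2r by 0.07, 0.74 and 0.62 (mean 0.48, SE 0.16, adjusted p = 0.0193). Igfbp4 was lower in Heavy, by -0.58, -0.62 and -0.70 (mean -0.63, SE 0.26, adjusted p = 0.04997). These 3 higher and 1 lower calls stand beside 23.6% and 27.1% of all genes, so they do not set the family apart. The median was 0.03 for members and -0.01 for all genes. With number as a block within genotype, Igfbp4 was called with more margin (adjusted p = 0.000629), and Igfbp3 (0.90, adjusted p = 3.84e-06 against 0.0855 without the block) and Igf1 (-0.57, adjusted p = 0.0289 against 0.134) were called as well. This block also spans the Total libraries, whose numbers did not pair with Heavy or Light in control cells. It is therefore not a paired test of Heavy against Light alone. The Igfbp4 call without the block was lost when any 1 of the 6 libraries was left out (adjusted p from 0.0584 to 0.157), and the Igf2r call without Heavy control library 2 or 3 or Light control library 3 (adjusted p = 0.115, 0.0596 and 0.0650).

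For the gradient, 1 member was called as shifted by the knockout, and that call depended on the processing. For Igfbp7 the Heavy minus Light difference was -0.10, 0.04 and 0.11 in knockout cells against 0.81, 0.63 and 0.45 in control cells. The shift was -0.61 (SE 0.15, adjusted p = 0.0365), and 0 members shifted up, beside 2.87% of all genes called in either direction. Most calls over all genes went down as well, with 62 up and 441 down. These were 44 and 108 with quantile normalization and 26 and 23 with median-of-ratios scaling. With the block the shift kept its call (adjusted p = 0.0325). It was lost with quantile normalization (-0.43, adjusted p = 0.205), median-of-ratios scaling (-0.57, adjusted p = 0.104), voom (adjusted p = 0.0677), a pseudocount of 0.1 (adjusted p = 0.0520), the 12 libraries alone (adjusted p = 0.106), and without any 1 of 10 of these libraries (adjusted p from 0.0529 to 0.0923; the exceptions are Heavy knockout library 1 and Light knockout library 3). The other shifts ran from -0.57 (Igf2) to 0.36 (Igf2r) and were not called, though Igf2 was called without the knockout libraries numbered 1 (-0.61, adjusted p = 0.0186) and Igf1r without Heavy knockout library 1 (-0.43, adjusted p = 0.0412). The median shift was -0.15 for members and -0.02 for all genes.

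The shift of Heavy against Total gave 0 calls among members with limma, beside 0.0114% of all genes. At an unadjusted p under 0.05 there were 2, Igf2r (0.66, SE 0.23, adjusted p = 0.407) and Igfbp7 (-0.50, SE 0.15, adjusted p = 0.327), and voom called 0 of all genes. The median was -0.06 for members and 0.01 for all genes. A shift that was not called is not shown to be 0 by these tests.

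**Figure D4:**
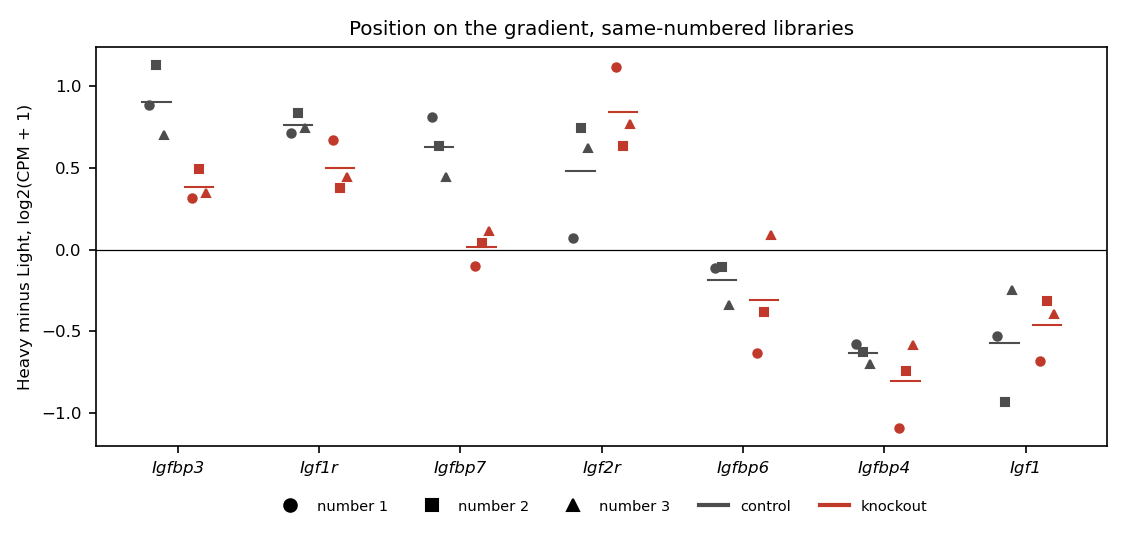
Heavy minus Light on the log2(CPM + 1) scale (vertical axis) for same-numbered libraries of control and knockout cells, with bars for the mean of 3, for the 7 members above the detection limit. The Igfbp7 points go from 0.45 to 0.81 in control to -0.10 to 0.11 in knockout cells, and those of Igfbp4 are below 0 in both.

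In the knockout, library 1 was the highest of the 3 in all fractions for 6 of 10 members (Igfbp2, Igfbp3, Igfbp4, Igf1, Igf2 and Igf1r), and in control cells library 2 was so for Igfbp3 and Igfbp4. Over the 18 libraries, which share the knockout contrast and the 3 fractions, Igfbp4 went with Igfbp6 (Pearson r = 0.97) and Igf2 (r = 0.95) and against Igfbp7 (r = -0.93). Igf1 followed none of these (r = 0.12 with Igfbp4 and -0.11 with Igfbp6). Among 9651 genes whose mean level reached 5 CPM, those most like Igfbp7 were Avpr1a, Mettl8 (both r = 0.99) and Arxes2 (r = 0.98). Those most like Igfbp4 were Ly6a, Ccl2 and Chac1 (r = 0.99 each), and those most like Igf2r were Npc1, Lrp1 and Gm8801 (r = 0.98 each). These r values describe the 18 libraries and carry no test.

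Calls in the rest of the pathway went in both directions. Of 83 tested genes in 7 lists, 15 were called higher and 9 lower in Total, beside 16.1% and 10.3% of all genes tested. In Light RNA these were 30 and 8, beside 26.8% and 12.7%, and in Heavy RNA 21 and 6, beside 18.5% and 10.4%. The Total counts were near the shares of all genes. Medians were 0.03, 0.20 and 0.06. The counts for single lists below are to be read beside the same shares. With median-of-ratios scaling the Light counts were 19 higher and 14 lower, and with it or quantile normalization 11 were lower in Heavy.

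Among other ligands, receptors and binders, 2, 3 and 3 of 10 tested genes were called higher and 3, 3 and 2 lower in Total, Light and Heavy RNA. Insr, the insulin receptor, went from 5.65 ± 0.577 to 12.9 ± 3.93 CPM in Light (1.03, SE 0.22, adjusted p = 0.00176) and from 7.30 ± 1.66 to 17.6 ± 6.25 CPM in Heavy RNA (1.14, SE 0.22, adjusted p = 0.00110). In Total RNA it was at 13.0 ± 1.34 and 20.6 ± 2.31 CPM (0.62, SE 0.22, adjusted p = 0.0507, not called). It passed the threshold there with quantile normalization (adjusted p = 0.0324), voom (adjusted p = 0.0359), a mean of at least 1 CPM (adjusted p = 0.0348), the 6 Total libraries alone (adjusted p = 0.00822), a pseudocount of 0.1 CPM (adjusted p = 0.0482) and without the knockout libraries numbered 1 (adjusted p = 0.0278). Htra1, a secreted serine protease with an IGF-binding-protein-like domain, rose from 32.6 ± 2.11 to 110 ± 13.8 CPM in Total (1.71), and by 2.29 in Light and 1.73 in Heavy RNA. Nov, a matrix protein of the CCN group, was low and rose by 0.71, 0.67 and 0.76. Its relative Ctgf fell from 749 ± 93.6 to 295 ± 95.2 CPM in Total (-1.39, SE 0.28, adjusted p = 0.00161), and by -0.91 in Light and -1.33 in Heavy RNA. Cyr61, also of that group, fell in Total (-0.60) and Heavy (-0.63) but was not called in Light RNA (-0.16). Kazald1 fell in Total (-0.57) and Light (-0.66), and Htra3, another serine protease, fell in Light (-0.67). The remaining tested genes Igfals, Insrr and Esm1 were at most at a mean of 0.0465 CPM and were not called. The Light fall of Ctgf was lost without Light knockout library 1 (-0.58, adjusted p = 0.114) and without Light control library 1 or 3 (adjusted p = 0.0649 and 0.0580).

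Of 10 proteases that cut binding proteins and their inhibitors, 2, 3 and 2 were called higher and 4, 2 and 4 lower in Total, Light and Heavy RNA. Htra1, counted here too, and the gelatinase Mmp2 rose, Mmp2 from 68.9 ± 9.43 to 147 ± 34.5 CPM in Total (1.06, SE 0.26, adjusted p = 0.00653), by 1.82 in Light and by 1.20 in Heavy RNA. Adam12, a membrane protease known to cut Igfbp3 and Igfbp5, fell from 61.0 ± 5.01 to 29.7 CPM in Total (-1.02, SE 0.16, adjusted p = 1.82e-04), with changes of -0.77 in Light and -0.995 in Heavy RNA. Pappa, the protease that cuts Igfbp4, fell in Total (from 4.48 ± 1.05 to 2.15 ± 0.729 CPM, -0.81) and Light RNA (-0.62) but was not called in Heavy (-0.54, adjusted p = 0.0542). Its Light call was lost without Light control library 3 (-0.42, adjusted p = 0.123) and without Light knockout library 2 or 3 (adjusted p = 0.0520 and 0.0688), and in Heavy RNA it was called with either other scaling (adjusted p = 0.00149 and 0.0111). Its inhibitor Stc2 fell in Total (-0.43) and Heavy (-0.67). Adamts1 fell in Total RNA (-0.85).

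Genes of the mannose 6-phosphate system, whose cargo Igf2r carries, were called higher for 5, 7 and 5 of 12 members and lower for 0. Of all genes, 16.1%, 26.8% and 18.5% were called higher. Among the lysosomal proteases, Ctsd rose from 187 ± 16.5 to 641 ± 72.1 CPM in Total (1.77, SE 0.16, adjusted p = 8.73e-07), Ctsb by 1.51 and Ctsl by 1.21. In Light RNA these rose by 2.53, 2.05 and 1.88 and in Heavy RNA by 1.53, 1.21 and 0.84. Plat, the tissue plasminogen activator, rose by 1.53, 2.39 and 1.93. M6pr, the other mannose 6-phosphate receptor, was at 208 ± 15.7 and 228 ± 12.4 CPM in Total RNA (0.13, adjusted p = 0.584) and was not called in any fraction. Along the gradient Ctsl (-1.04), Ctsd (-0.99), Ctsb (-0.84) and Nagpa (-0.67) shifted from Heavy towards Light, calls that were all lost in a fit of the 12 Heavy and Light libraries alone (adjusted p from 0.0568 to 0.103).

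Signalling genes behind the receptor were counted by fraction. Of 17 receptor adaptors and regulators, 0 were called higher and 1 lower in Total RNA (Gab1, -0.70), against 9 higher and 0 lower in Light and 6 and 0 in Heavy. The shares of all genes called higher also differed, at 16.1% in Total, 26.8% in Light and 18.5% in Heavy RNA. For the shift of Heavy against Total, 0 of the adaptors were called, beside 0.0114% of all genes. Irs1, a docking protein of the IGF1 and insulin receptors, was at 26.9 ± 2.28 and 26.0 ± 3.82 CPM in Total RNA (-0.05, adjusted p = 0.882) and rose by 0.64 in Light and in Heavy. The Light call of Irs1 was lost with quantile normalization (adjusted p = 0.0749), median-of-ratios scaling (adjusted p = 0.0649) and without Light control or knockout library 1, and the Heavy call without Heavy control or knockout library 1 (adjusted p = 0.128 and 0.115). Irs2 rose in Heavy RNA (0.90, adjusted p = 0.00718). Of 20 PI3 kinase, AKT and FOXO genes, 1, 3 and 1 were called higher and 1, 3 and 0 lower. Foxo3, a transcription factor that AKT keeps out of the nucleus, rose in all 3 fractions (0.72, 0.95 and 0.92). Akt1 fell in Light RNA (-0.65, SE 0.23, adjusted p = 0.0348). The call was lost without Light knockout library 1, where the change was -0.38 (adjusted p = 0.204), in a fit of the 6 Light libraries alone (adjusted p = 0.0530), and without any 1 of the 3 Light control libraries, where the change kept its size (-0.67, -0.57 and -0.70, adjusted p from 0.0538 to 0.114).

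A further list held neighbours and regulators of Igf2 and Igf2r together with other imprinted genes, such as Dlk1 and Mest. Of its 13 tested genes, 5, 5 and 4 were called higher and 0 lower, beside 16.1%, 26.8% and 18.5% of all genes higher. Dlk1, an imprinted gene of early growth, went from 0.359 ± 0.106 to 5.19 ± 1.38 CPM in Total RNA (2.17, SE 0.18, adjusted p = 4.10e-07). Mest went from 2.18 ± 0.492 to 4.96 ± 0.320 CPM (0.92). H19, the neighbour of Igf2 that shares its enhancers, was low and went from 0.242 ± 0.0280 to 0.805 ± 0.476 CPM in Total RNA (0.51, SE 0.16, adjusted p = 0.0290). That call was lost with quantile normalization (0.30, adjusted p = 0.149), voom (adjusted p = 0.113), a pseudocount of 0.1 CPM (adjusted p = 0.0681), the 6 Total libraries alone (adjusted p = 0.0598), and without Total knockout library 1 (0.30, adjusted p = 0.165) or any 1 of the 3 Total control libraries (adjusted p from 0.0606 to 0.0778). In Light and Heavy RNA, H19 differed by 0.27 and 0.24 and was not called. Of the 3 proteins that bind Igf2 mRNA, Igf2bp3 rose in all 3 fractions (0.69, 0.64 and 0.67) and Igf2bp2 in Light (0.89), while Igf2bp1 was not called (-0.17 in Total and 0.33 in Light, where it was called without Light knockout library 1, adjusted p = 0.0407).

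**Figure D5:**
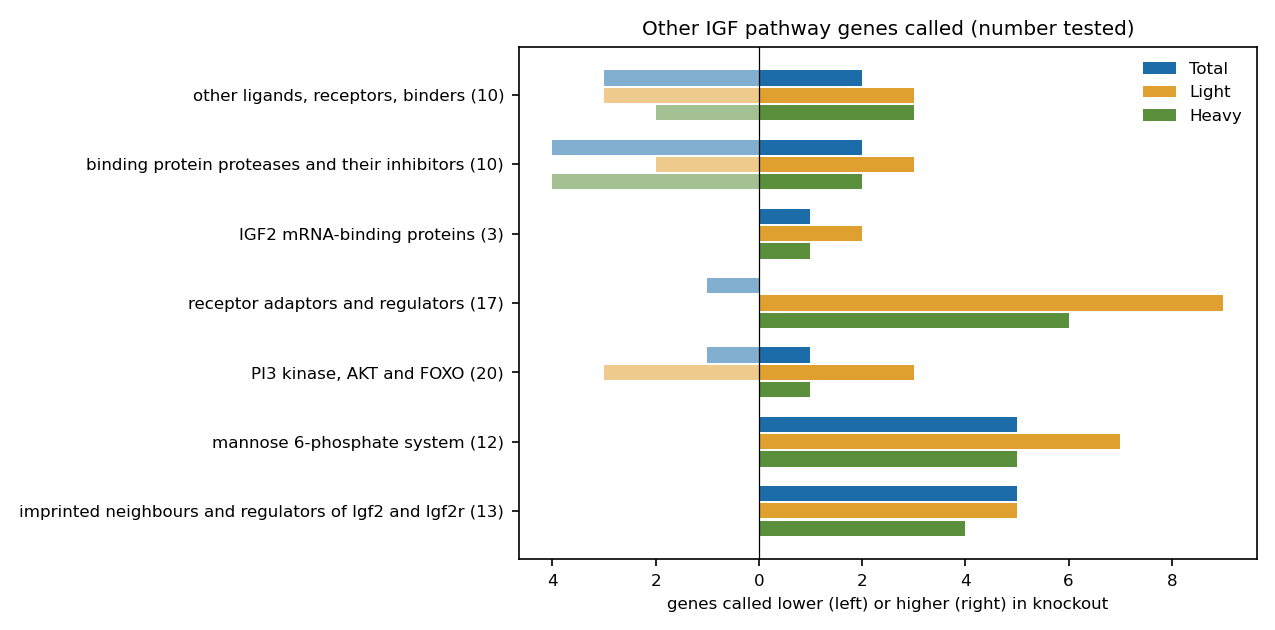
Number of genes called lower (pale bars, left) or higher (solid bars, right) in knockout cells for each pathway list, by fraction, with the number tested in brackets. The mannose 6-phosphate system has 5, 7 and 5 genes called higher and 0 lower, and the receptor adaptors have 9 called higher in Light and 0 in Total RNA. Of all genes tested, 16.1% were called higher in Total, 26.8% in Light and 18.5% in Heavy RNA.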

How the data were processed

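The members and gene lists were chosen with earlier results of these data known. The deposited values are log2(CPM + 1) from the authors' single table. Undoing the log2 gave whole reads for 100% of values (tolerance 0.1 reads), hence the depths of 32.3 to 57.9 M reads (M for 1000000). Per the submitters' processing notes, STAR, edgeR and mm10 were used, with no versions. Counter, annotation and strand setting were not given in the sources used here. Overlapping genes are therefore uncertain. limma 3.58.1 (R 4.3.3, trend and robust variances, 6 group means, 18 libraries) was fitted to genes above 0 in at least 3 libraries, 17515 in all, with Benjamini-Hochberg adjustment over them and calls at an adjusted p under 0.05. Each SE pools the spread of all groups. The fitting was tested on simulated data. Genes named from the pathway lists were those with a mean of at least 5 CPM and the largest called changes, the first list whole, and others chosen after their values were seen (Pappa, Stc2 in Total, Irs1, Irs2, Foxo3, M6pr, Dlk1, Mest, H19 and the Igf2bp genes). Counts came from pandas 2.3.3 and numpy 2.4.6 under Python 3.11.15, exact intervals from scipy 1.17.1, and figures from matplotlib 3.10.9. Same-numbered Heavy and Light libraries deviated together (r of 0.324 to 0.412 in control, 0.276 to 0.602 in knockout), so numbers were taken to pair them. This is less certain in the knockout, where Heavy library 3 had a higher r with Light library 2 (0.493) than with Light library 3 (0.276). Numbers did not pair control with knockout (r of -0.453 to 0.558). In control cells they did not pair Total with Heavy (-0.448 to 0.165) or with Light libraries (-0.647 to 0.355). In knockout cells r was 0.061 to 0.51 for Total with Heavy and 0.434 to 0.642 for Total with Light libraries. So the 3 knockout fractions are not independent repeats. Alternatives were quantile normalization, median-of-ratios scaling and voom on the recovered reads, other filters, no trend, a pseudocount of 0.1 CPM, the libraries of a comparison alone, the replicate block, and leaving out single libraries or all knockout libraries numbered 1. Promoters came from RefSeq (GRCm38.p6, all 10 members matched) and positions from GENCODE M21 (GRCm38). Raw reads were not analysed here.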

Additional observations from a re-analysis of the deposited data

Results flagged for a closer look

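The shift between the gradient fractions, a test of the difference between the knockout changes in Heavy and in Light RNA, was past the threshold for Igfbp7 (-0.61, limma adjusted p = 0.0365). This call was kept in 7 of 22 alternatives, so a difference of its change between the fractions is not settled. The same test was past the threshold for 5 pathway genes. Of the lysosomal proteases, Ctsl shifted by -1.04 (adjusted p = 0.00852), Ctsd by -0.99 (adjusted p = 0.0327) and Ctsb by -0.84 (adjusted p = 0.0194). Gnb2l1, which encodes the ribosomal scaffold protein RACK1, shifted by -0.85 (adjusted p = 0.0235), and Nagpa, which uncovers the mannose 6-phosphate tag of lysosomal enzymes, by -0.67 (adjusted p = 0.0221). All 6 calls were lost when the fit used the 12 Heavy and Light libraries alone, where 8 genes in all were called against 503. Of those 503 genes, 441 shifted down and 62 up, so the downward direction was that of most calls. With median-of-ratios scaling the calls of Igfbp7, Ctsd, Ctsb, Gnb2l1 and Nagpa were lost.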

How the results depend on the processing

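Over the 6 comparisons, 998 combinations of member and alternative kept their direction and side of the threshold, 21 gained a call, 43 lost one and 0 reversed. For pathway genes these were 3767, 73, 120 and 0. The shift between Heavy and Light was the least stable count: 503 genes were called, against 152 with quantile normalization, 49 with median-of-ratios scaling, 335 with voom, 756 without trend, 8 with the libraries alone, 1872 without the knockout libraries numbered 1 and 7 to 2011 with 1 library left out. Its members called lower were 0 with quantile normalization, median-of-ratios scaling, voom, the libraries alone and a pseudocount of 0.1, 2 without the knockout libraries numbered 1, and 0 to 2 with 1 library left out. The shift of Heavy against Total had 2 genes, against 0 with voom, a mean of at least 1 CPM or a pseudocount of 0.1, 1 without a filter, 4 without the knockout libraries numbered 1 and 1 to 9 with 1 library left out. Without the knockout libraries numbered 1, 2 members were lower in Total. With the libraries alone, 2976 genes were called in Heavy, against 5061. In control cells the members lower in Heavy than in Light were 0 with quantile normalization, median-of-ratios scaling, no filter or no trend, 2 with the libraries alone and without the knockout libraries numbered 1, and 0 to 0 with 1 library left out. Pathway genes higher in Light were 19 with median-of-ratios scaling and 24 to 27 with 1 library left out. Those lower in Light were 14 with median-of-ratios scaling and 4 to 6 with 1 library left out, and those lower in Heavy were 11 with quantile normalization and with median-of-ratios scaling and 4 to 8 with 1 library left out. The cause of these differences was not tested, beyond the fewer libraries that some settings use.

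With the replicate block, 1 gene was called for the shift of Heavy against Total and 2 members were lower in Heavy than in Light in control cells. The block ended the calls of Igf1r in Total (adjusted p = 0.0784) and Igfbp3 in Light (adjusted p = 0.0732), where the numbers share no pairing, and those of Akt1 in Light (adjusted p = 0.0537) and Irs1 in Light and Heavy (adjusted p = 0.0589 and 0.0783). It changed no other member call except those of the control gradient given with that result. At these depths a gene with a few reads per library, such as Igf2, Igfbp2 or Igfbp5 in control cells, has a fold change whose size is imprecise. The counting intervals of their ratios all lie above 1, but they leave out the spread between libraries. For Igfbp2 in Total RNA, 13 of the 15 control reads came from library 2, the groups overlapped and the limma adjusted p was 0.165.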
